A study of Mus musculus with 26 samples.

Results

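The liver of embryos at E14.5 was compared between 1 WT library and 1 library labelled *Dnmt3a* KO, by the FPKM values of a single RNA-seq table. Rows that share a gene symbol were summed, and autosomal genes that reached 1 FPKM in at least 1 of these livers were taken, which gave 12873 genes of the 52454 symbols in the table. Of these genes, 11518 are protein-coding with an annotated transcript of at least 500 bases, and 11859 reached 1 FPKM in both livers. The difference of a gene is given as the log2 ratio of FPKM + 1, KO over WT, and a gene is called higher or lower where FPKM + 1 differed at least 2-fold. With 1 library for each genotype, the spread between embryos is unknown and no test was run.

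The study examined where DNMT3A and DNMT3B place new DNA methylation during mouse development, and it sequenced RNA from livers and hearts to ask whether genes bound by Polycomb depend on *Dnmt3a*. The labels describe both livers as male C57BL6 tissue of E14.5, with the number 4 for WT and 25 for KO. The methods derive both genotypes from crosses of mice heterozygous for the B6;129S4-Dnmt3a tm1Enl allele, which is inactivated in the germ line and so in all tissues of a KO embryo. Littermate status and the number of embryos behind each library are not given in the sources used here.

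DNMT3A and DNMT3B are the enzymes that methylate CpG sites anew in the embryo, whereas DNMT1 copies existing methylation when DNA is replicated. The fetal liver at this age is above all a blood-forming organ. Erythroblasts of the definitive lineage fill it, around hepatoblasts that secrete plasma proteins and around macrophages, sinusoidal endothelium, stellate cells, megakaryocytes and myeloid precursors. In bulk tissue, fewer cells of a type and less RNA per cell cannot be told apart.

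*Dnmt3a* was at 53.5 FPKM in WT liver and 12.7 in KO liver, so it followed the label without being lost (log2 ratio -1.99). Its exons overlap *Dnmt3aos* on the other strand. Hearts with the same label numbers had 55.0 (WT) and 125 (KO) FPKM, higher under the KO label. In fibroblasts with DMSO *Dnmt3a* was also higher under the KO label (26.1 against 85.7 FPKM). The FPKM of the whole gene does not isolate the inactivated part of the allele, so it does not settle the genotype of a library. Directions in heart and fibroblasts are therefore those of the labels only. *Xist*, the RNA of the silenced X chromosome in females, was at 0.00434 FPKM in WT and 0.1 in KO liver, close to 0 in both. Depth was estimated at 26222419 reads in WT liver and 25750652 in KO liver, so that 1 FPKM on 2000 bases equals 47.2 and 46.3 reads. The defining hepatocyte markers *Alb*, *Afp* and *Hnf4a* and the erythroid markers *Slc4a1* and *Klf1* were expressed in both livers at 40.4 FPKM or more.

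Most genes were at close levels in WT and KO liver. Over the 12873 genes, 175 were higher (1.36%) and 294 were lower (2.28%) in KO liver, 3.64% together. Among the 11518 protein-coding genes, 62 were higher (0.538%) and 185 lower (1.61%), together 247 genes or 2.14%, and 11271 lay within 2-fold. The ratios leaned downward as a whole: their median was -0.09, the middle 50% lay between -0.28 and 0.09, and 7247 genes were lower against 4271 higher at any size. The remaining 1355 genes, which are non-coding or have only short transcripts, held 113 higher (8.34%) and 109 lower (8.04%) calls, so the rest of the text names protein-coding genes except where stated. Centring the ratios on their median of -0.08 over genes at 1 FPKM in both livers moved the protein-coding calls to 73 higher and 139 lower. Requiring 1 FPKM in both livers left 42 higher and 100 lower.

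**Figure D1:**
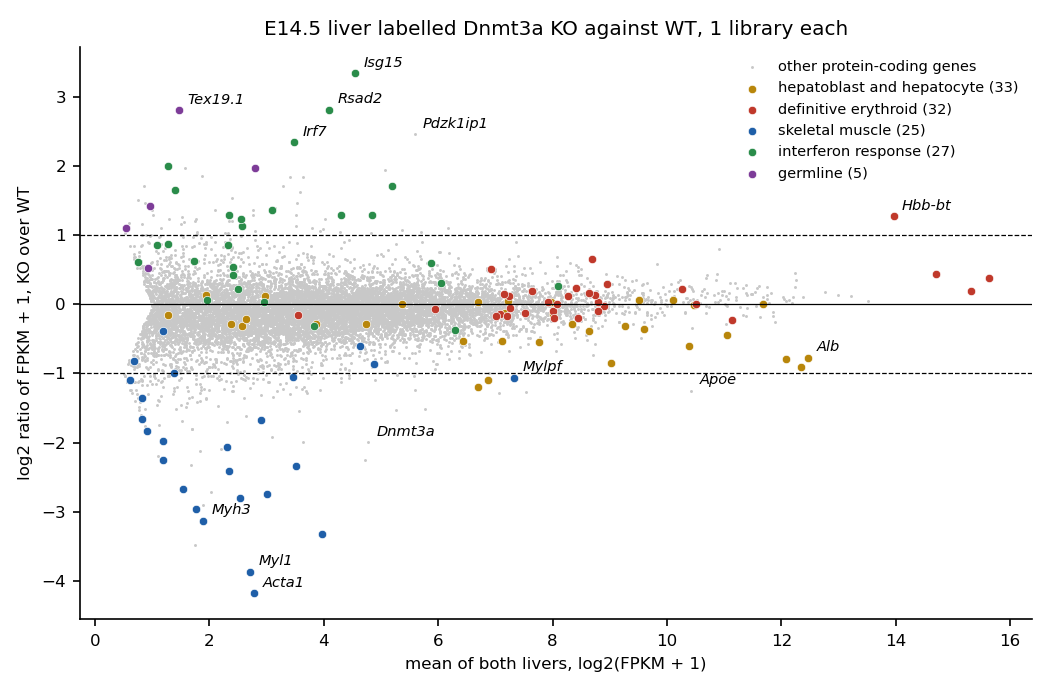
Each point is a protein-coding gene, with its mean log2(FPKM + 1) over WT and KO liver on the horizontal axis and its log2 ratio of FPKM + 1 (KO over WT) on the vertical axis. Coloured points are list members (number in the legend) and dashed lines mark 2-fold. Skeletal muscle genes lie below 0 (25 of 25 members), interferon-response genes mostly above (25 of 27), and *Dnmt3a* stands at -1.99.

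The largest differences were in genes of striated muscle, which were lower in KO liver. *Acta1*, the actin of skeletal muscle fibres, was at 28.4 FPKM in WT and 0.624 in KO liver. *Myl1*, a light chain of fast muscle myosin, was at 24.1 against 0.710 FPKM, and *Myh3*, the embryonic myosin heavy chain, was at 9.96 against 0.248 FPKM. These genes were expressed in WT liver and close to 0 in KO liver, with log2 ratios of -4.18, -3.87 and -3.13. In FPKM, *Acta1* was 45.6-fold lower (95% counting interval 20.9 to 109) and *Myh3* 40.1-fold lower (29.0 to 57.2). These intervals rest on the reads estimated for the shortest annotated transcript, at least 310 and 1512 reads in WT, and cover counting error only, since the reads carry no molecular identifiers.

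The regulators that drive muscle differentiation showed the same direction. *Myog*, the transcription factor myogenin, was at 6.31 FPKM in WT and 0.150 in KO liver, an estimated 214 against 5 reads. *Myod1*, which commits cells to muscle, was at 2.55 FPKM in WT and listed at 0 in KO, and *Mymk*, the membrane protein myomaker needed for myoblast fusion, was at 2.16 FPKM and listed at 0. The thin filament genes *Actc1* (48.5 against 3.97 FPKM), *Tnnt3* (8.52 against 0.224 FPKM) and *Tnnc2* (14.3 against 1.18 FPKM) were lower too. Exons of *Tnnc2* overlap those of *Ube2c* on the other strand, and the strand setting used in counting is not given in the sources used here.

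Not every muscle gene was near 0 in KO liver. *Mylpf*, the regulatory light chain of fast fibres and the highest gene of the list, was at 231 FPKM in WT and 110 in KO. *Tnnc1*, the troponin C of slow and cardiac muscle, was at 38.4 against 20.7 FPKM, and *Tnnt1*, a slow troponin T, was at 29.3 against 19 FPKM. All 3 genes thus remained expressed in KO liver, and the last 2 were within 2-fold.

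Of 36 skeletal muscle genes listed, 25 reached 1 FPKM in at least 1 liver, and 20 of the 25 were called lower, where the background is 1.61% of protein-coding genes. No member was higher. Their median log2 ratio was -1.98 (95% order-statistic interval -2.67 to -1.09), beside -0.09 over all protein-coding genes. Because 14 of the 25 reached 1 FPKM only in WT liver, that count partly follows from the filter. The 11 members at 1 FPKM or more in both livers were all below 0, 9 of them called, with a median of -2.07. At any level, 35 of the 36 genes were lower in KO liver, and *Pax3* was listed at 0 in both. The summed level of the list was 555 FPKM in WT and 179 in KO liver, and the list makes up 20 of the 185 lower protein-coding genes (10.8%). Fibres of skeletal muscle are not a cell type of the liver, and the source of these transcripts was not tested.

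The start regions of 2 of these genes are shown because many muscle promoters carry the E-box CAGCTG, a sequence that MYOD1 and myogenin are known to bind. Capitals mark each CAGCTG, which reads alike on both strands. Sequences are from RefSeq, build GRCm38.p6, 250 bases before the gene start and 50 bases from it on, written 5′ to 3′ in the direction of the gene.
Acta1, chr8:123894726-123895025, minus strand: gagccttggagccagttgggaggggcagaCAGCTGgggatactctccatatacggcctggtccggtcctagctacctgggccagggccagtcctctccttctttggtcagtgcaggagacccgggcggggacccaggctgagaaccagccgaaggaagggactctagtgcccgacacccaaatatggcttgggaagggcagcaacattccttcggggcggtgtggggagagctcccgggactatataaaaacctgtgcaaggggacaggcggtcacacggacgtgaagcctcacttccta
Myl1, chr1:66945007-66945306, minus strand: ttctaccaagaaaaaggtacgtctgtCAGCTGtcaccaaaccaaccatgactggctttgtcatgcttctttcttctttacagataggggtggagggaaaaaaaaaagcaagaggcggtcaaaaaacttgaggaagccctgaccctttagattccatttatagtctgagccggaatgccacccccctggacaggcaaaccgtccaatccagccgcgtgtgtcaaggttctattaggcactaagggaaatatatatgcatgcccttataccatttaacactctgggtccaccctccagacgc
The motif lay 221 bases before the start of *Acta1* and 224 bases before the start of *Myl1*, and it was in 9 of 20 windows of called muscle genes (45%) and in 5355 of 32851 windows of all genes (16.3%). No CAGCTG was found in the windows of *Myog* and *Myh3*. A match describes the letters of the window and is not evidence of binding.

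**Figure D2:**
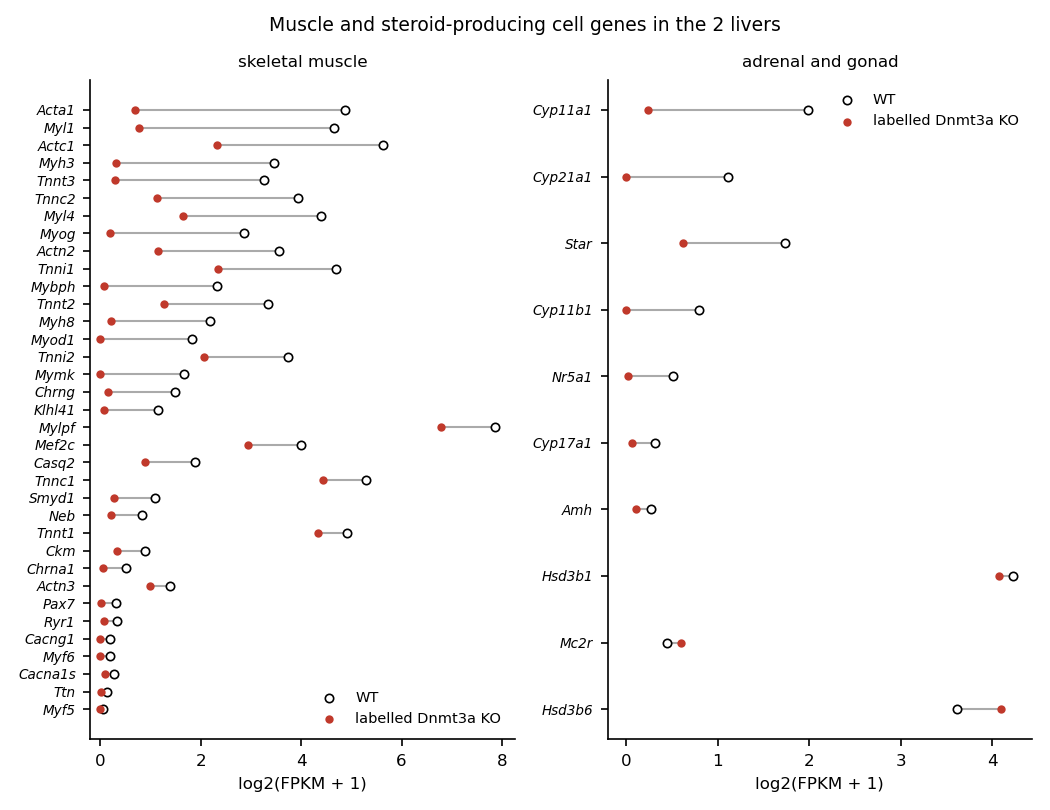
Level of each listed gene detected in at least 1 liver, as log2(FPKM + 1) on the horizontal axis; open circles are WT, filled circles KO, 1 library each. In the skeletal muscle panel all 35 genes have the KO circle to the left, with *Acta1* from 28.4 to 0.624 FPKM; in the adrenal and gonad panel *Cyp11a1*, *Cyp21a1* and *Star* are lower while *Hsd3b1* and *Hsd3b6* stay high.

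Few heart muscle genes were measured in liver. *Myl2*, the ventricular myosin light chain, was at 0.493 FPKM in WT and 4.91 in KO liver, and *Tnni3*, the cardiac troponin I, was at 0.525 against 2.27 FPKM. Both were called higher, beside 0.538% of protein-coding genes, but they reached 1 FPKM in KO liver alone, and *Myl2* rests on at least 1 estimated read in WT and 13 in KO at its shortest transcript. *Tnnt2*, *Actn2* and *Myh7*, which are shared by heart and embryonic skeletal muscle, were called lower (9.12 against 1.42 FPKM for *Tnnt2*), beside 1.61% of protein-coding genes, *Myh7* having reached 1 FPKM in WT alone. Of the 4 members at 1 FPKM in both livers, 3 were below 0, 2 of them called, and none was called higher. Of 15 listed cardiomyocyte genes 7 were measured at 1 FPKM, and the defining genes *Myh6*, *Nppa* and *Nkx2-5* were under 1 FPKM in both livers.

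Genes of steroid-producing cells were also lower, at low levels. *Cyp11a1*, which makes pregnenolone from cholesterol, was at 2.97 FPKM in WT and 0.182 in KO liver. *Star*, which carries cholesterol into mitochondria, was at 2.33 against 0.540 FPKM, and *Cyp21a1*, the 21-hydroxylase of adrenal steroids, was at 1.17 FPKM and listed at 0. These 3 of the 5 measured members were called lower, where the background is 1.61% of protein-coding genes, but each reached 1 FPKM in WT alone and so entered through the library where it is high. *Hsd3b1* (17.7 against 15.8 FPKM) and *Hsd3b6* (11.3 against 16.1 FPKM), steroid dehydrogenases found in several organs, were within 2-fold. The median of -1.11 becomes 0.16 over the 2 members at 1 FPKM in both livers. *Th*, the first enzyme of catecholamine synthesis, was at 1.21 FPKM in WT and 0.0497 in KO, the only called gene of 4 nerve and glia members. The muscle and adrenal genes were thus high in the same library, WT, and their part in other differences was not tested.

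The highest ratios belonged to genes of the interferon response, which cells switch on through STAT2 and IRF9 after interferon binds its receptor and which restrict viruses. *Isg15*, a ubiquitin-like protein attached to other proteins in this response, was at 6.32 FPKM in WT and 73.7 in KO liver. *Rsad2*, the antiviral enzyme viperin, was at 5.46 against 44.5 FPKM, and *Ifit1*, which binds foreign RNA ends, was at 0.217 against 3.86 FPKM. All 3 were several-fold higher in KO liver, with log2 ratios of 3.35, 2.82 and 2.00. In FPKM, *Isg15* was 11.7-fold higher (95% counting interval 9.41 to 14.6), from an estimated 92 and 1053 reads.

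Regulators of the response were higher as well. *Irf7*, a transcription factor that amplifies interferon production, was at 3.93 FPKM in WT and 24.2 in KO liver, where its exons overlap *Phrf1* on the other strand. *Irf9* was at 11.6 against 29.9 FPKM, whereas *Stat2*, its partner, was at 4.22 against 5.10 FPKM and within 2-fold. Sensors of double-stranded RNA were *Ifih1*, called higher with 2.83 against 8.04 FPKM, and *Ddx58*, with 2.70 against 5.74 FPKM below the threshold. *Usp18*, which removes ISG15 and dampens the receptor, was at 4.31 against 12.7 FPKM.

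Some genes of the interferon list act in antigen presentation, and those named here were within 2-fold. *B2m*, the light chain of MHC class I, was at 249 FPKM in WT and 300 in KO liver, and *H2-K1*, a class I heavy chain, was at 88.1 against 68.1 FPKM. *Psmb8*, a subunit of the immunoproteasome, was at 14.8 against 11.7 FPKM. *H2-K1* and *Psmb8* were the only listed genes below 0.

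Of 33 interferon-response genes listed, 27 reached 1 FPKM in at least 1 liver and 12 of these were called higher, against 0.538% of protein-coding genes, while none was lower. Their median log2 ratio was 0.86 (95% order-statistic interval 0.42 to 1.30), with 25 members above 0. Only KO liver reached 1 FPKM at 5 of the members. Over the 22 members at 1 FPKM in both livers the median was 0.75, and 10 were called. The list was summed to 562 FPKM in WT and 890 in KO liver, and it holds 12 of the 62 higher protein-coding genes (19.4%).

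Other genes known from interferon responses were among the 15 highest ratios without being on the list. *Irgm1*, a GTPase that acts on membranes around pathogens, was at 16.1 FPKM in WT and 65.0 in KO liver, and its relative *Igtp* was at 5.52 against 22.6 FPKM. *Igtp* shares exon sequence with *Irgm2* on the same strand, so reads could be divided between them. *Parp9*, an ADP-ribosyltransferase, was at 4.58 against 19 FPKM, and *Rnf213*, a large ubiquitin ligase, was at 4.38 against 16.7 FPKM. *Parp9* overlaps *Dtx3l* and *Rnf213* overlaps a non-coding gene, both on the other strand.

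The start regions of 3 interferon-response genes are shown with a motif in capitals that reads GAAA, any 2 bases, GAAA. It is the core of the interferon-stimulated response element, which STAT2 and IRF9 bind. It was searched on both strands, so that on the other strand it reads TTTC, any 2 bases, TTTC, and overlapping matches were counted. The source, build and window are those given for the muscle genes.
Isg15, chr4:156200769-156201068, minus strand: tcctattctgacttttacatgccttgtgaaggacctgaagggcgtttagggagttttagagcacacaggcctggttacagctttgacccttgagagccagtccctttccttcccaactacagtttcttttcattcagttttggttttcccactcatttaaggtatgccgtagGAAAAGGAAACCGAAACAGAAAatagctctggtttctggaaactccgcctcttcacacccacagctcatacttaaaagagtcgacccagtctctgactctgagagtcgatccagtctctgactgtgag
Rsad2, chr12:26456403-26456702, minus strand: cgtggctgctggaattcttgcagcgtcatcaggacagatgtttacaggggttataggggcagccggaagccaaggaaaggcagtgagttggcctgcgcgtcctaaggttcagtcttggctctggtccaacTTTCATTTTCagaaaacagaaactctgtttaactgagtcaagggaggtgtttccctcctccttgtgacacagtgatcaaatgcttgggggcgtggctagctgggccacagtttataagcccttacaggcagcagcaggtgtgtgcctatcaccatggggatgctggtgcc
Ifit1, chr19:34640639-34640938, plus strand: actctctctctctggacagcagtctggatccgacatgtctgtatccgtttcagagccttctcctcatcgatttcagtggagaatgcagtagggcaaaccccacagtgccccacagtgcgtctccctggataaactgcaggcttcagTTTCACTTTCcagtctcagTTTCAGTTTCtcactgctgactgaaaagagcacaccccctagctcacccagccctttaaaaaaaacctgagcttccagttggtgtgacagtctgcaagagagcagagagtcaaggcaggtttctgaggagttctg
*Isg15* holds 3 overlapping matches, *Ifit1* holds 2 and *Rsad2* holds 1. The motif was in 5 of 10 windows of called list members (50%) and in 13 of 28 windows of the whole list (46.4%), beside 1131 of 32851 windows of all genes (3.44%). The window of *Irf7* held no match, which says only that these letters are not in that window.

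Some genes of the germline list made up another small group with higher levels. *Tex19.1*, a germline gene whose promoter is known to be kept silent by DNA methylation in somatic tissue, was at 0.0494 FPKM in WT and 6.34 in KO liver. In reads this is 0 to 2 in WT and 33 to 252 in KO, depending on the transcript. *Rpl39l*, a ribosomal protein variant of the testis, was at 2.51 against 12.9 FPKM. It was at 12.6 FPKM in WT fibroblasts with DMSO, so it was not confined to germ cells in these data. *Syce1*, a protein of the synaptonemal complex in meiosis, was at 0.182 against 2.18 FPKM, and *Stk31*, a kinase-like gene of the testis, was listed at 0 in WT and at 1.14 FPKM in KO. All 4 were called higher, beside 0.538% of protein-coding genes.

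Most of the germline list stayed below 1 FPKM. Of 32 genes listed, 5 reached 1 FPKM, and 4 of the 5 did so only in KO liver, so their count was fixed in part by the filter. At any level 20 of the 32 were higher in KO liver, 4 were lower and 8 were listed at 0 in both. *Ddx4*, the germ cell RNA helicase, was at 0.0744 FPKM in WT and 0.401 in KO, and *Dazl*, *Sycp1* and *Mael*, which also mark germ cells, were close to or at 0 in both. *Rhox5*, an X-linked homeobox gene of the reproductive tract and so outside the autosomal genes, was at 4.5 against 9.26 FPKM.

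CpG sites of 2 of these start regions are printed in capitals, since DNMT3A methylates the C of CpG. The source, build and window are as above.
Tex19.1, chr11:121145893-121146192, plus strand: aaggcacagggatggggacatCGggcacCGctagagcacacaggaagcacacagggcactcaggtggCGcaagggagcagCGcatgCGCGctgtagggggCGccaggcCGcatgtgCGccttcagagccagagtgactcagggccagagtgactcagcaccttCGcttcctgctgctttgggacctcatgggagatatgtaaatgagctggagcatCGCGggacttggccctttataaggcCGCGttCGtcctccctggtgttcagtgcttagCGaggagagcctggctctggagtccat
Stk31, chr6:49395289-49395588, plus strand: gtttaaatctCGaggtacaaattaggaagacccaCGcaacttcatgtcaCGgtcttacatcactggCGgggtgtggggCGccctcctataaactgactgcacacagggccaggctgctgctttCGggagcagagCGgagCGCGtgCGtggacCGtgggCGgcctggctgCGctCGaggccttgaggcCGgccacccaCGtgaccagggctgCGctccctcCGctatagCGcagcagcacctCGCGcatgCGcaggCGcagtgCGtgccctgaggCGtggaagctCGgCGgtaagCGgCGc
*Tex19.1* holds 16 CpG sites and this window of *Stk31* holds 29. The 5 windows of the called germline genes hold a median of 17 CpG sites and all 33 windows of the list a median of 18, beside a median of 7 over all 32851 windows. DNA methylation of these windows in liver was not analysed here.

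**Figure D3:**
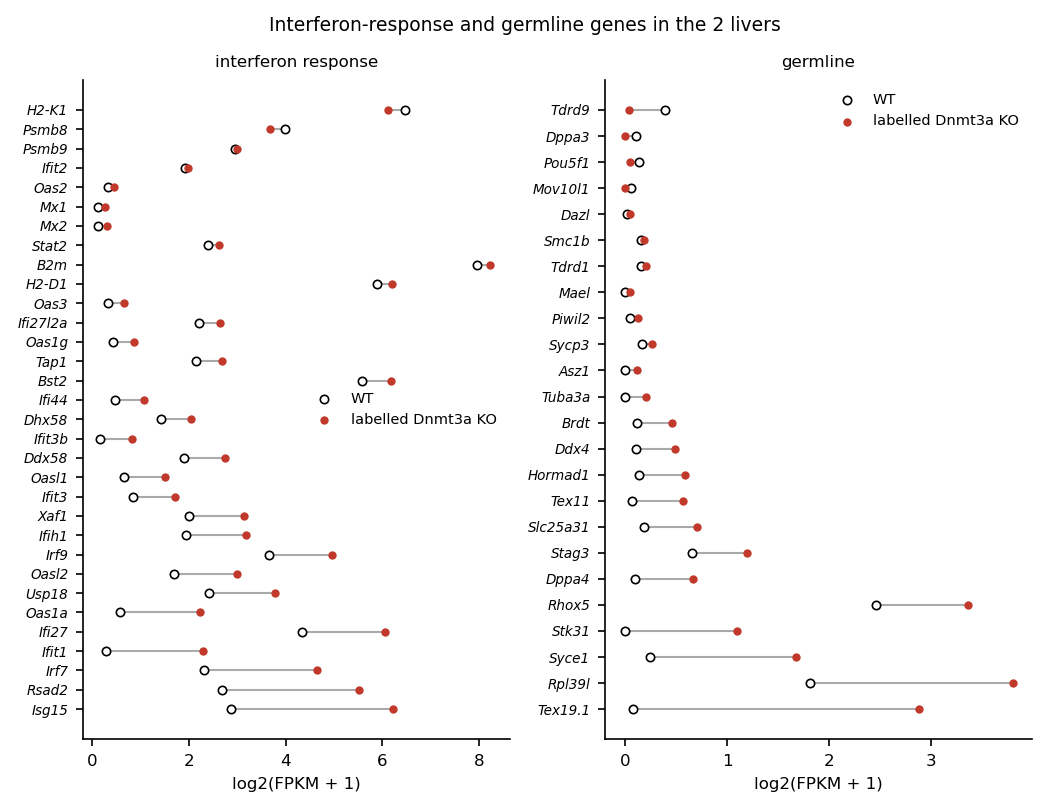
Level of listed genes detected in at least 1 liver, as log2(FPKM + 1); open circles are WT and filled circles KO, 1 library each. All interferon-response genes drawn except *H2-K1* and *Psmb8* have the KO circle to the right, led by *Isg15* (6.32 to 73.7 FPKM); among germline genes *Tex19.1*, *Rpl39l*, *Syce1* and *Stk31* reach 1 FPKM or more in KO.

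Apart from these groups, the 15 highest ratios held *Pdzk1ip1* and *Cfap57*. *Pdzk1ip1*, a small membrane protein that binds PDZ domains, was at 19.5 FPKM in WT and 112 in KO liver, 5.72-fold (4.52 to 7.33), while heart had 19.4 and 18.7 FPKM. *Cfap57*, a protein of motile cilia, was at 0.908 against 5.95 FPKM. *Ip6k1*, an inositol phosphate kinase, was at 48.2 against 105 FPKM, and it overlaps a predicted gene on the same strand. *Pdzk1ip1* thus differed in liver and was level in heart, a contrast that was not tested.

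Among the 15 lowest ratios, *Col26a1*, *Zfp972* and *Gm45799* are neither muscle nor macrophage genes. *Col26a1*, a collagen-like matrix protein, was at 9.21 FPKM in WT and 0.354 in KO liver, and *Zfp972*, a predicted zinc finger gene, was at 6.18 against 0.432 FPKM. *Gm45799* was at 9.49 against 0.597 FPKM but shares exons with *Dnhd1* and *Timm10b* on the same strand, so its own level is uncertain. Outside these lowest ratios, *Ptp4a1*, a membrane-associated phosphatase, was called lower with 207 against 84.9 FPKM summed over its entries.

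Hepatoblast genes were modestly lower in KO liver at the level of the list, with its most abundant members lower and others at the same level. *Alb*, the main plasma protein, was at 7396 FPKM in WT and 4323 in KO liver. *Afp*, the fetal counterpart of albumin, was at 7091 against 3785 FPKM, and *Trf*, the iron carrier transferrin, was at 5678 against 3284 FPKM. All 3 differed by less than 2-fold, with log2 ratios of -0.77, -0.91 and -0.79. The members called lower were *F2*, the clotting factor prothrombin (156 against 67.7 FPKM), and *Hpx*, the haem-binding hemopexin (170 against 79.5 FPKM).

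Other secreted hepatoblast products were level. *Apoa2*, an apolipoprotein of high-density particles, was at 3249 FPKM in WT and 3276 in KO, and *Ttr*, the thyroid hormone carrier transthyretin, was at 715 against 745 FPKM. *Hnf4a*, the transcription factor that maintains hepatocyte identity, was at 40.4 against 40.6 FPKM. All 33 listed genes were measured, of which 24 were below 0, 2 were called lower (6.06%, beside 1.61% of protein-coding genes) and none was higher. Their median was -0.29 (95% order-statistic interval -0.45 to -0.13), beside -0.09 over all protein-coding genes, of which 7247 of 11518 were below 0. Their sum was 35686 FPKM in WT and 24599 in KO liver, 0.689 of WT. *Apoe*, the lipid carrier made by hepatoblasts and macrophages, was called lower with 2124 against 892 FPKM.

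Measured genes of hepatocyte metabolism had a median near 0, and the contrast with the hepatoblast list was not tested. *Ass1* and *Asl*, which act in the urea cycle, were at 124 and 90.5 FPKM in WT and at 124 and 89.2 FPKM in KO liver. *Hamp*, the iron hormone hepcidin, was the only called member (5.88%), with 2.37 against 5.95 FPKM. Its annotated transcripts are shorter than 500 bases, so it belongs to the 1355 other genes, of which 8.34% were called higher. The 17 measured members had a median of -0.02, which turns to 0.06 when ratios are centred. At any level 13 of the 35 listed genes were higher in KO liver and 20 were lower. Acute phase genes had a median of 0.03 over 12 members with none called, and the metallothioneins *Mt1* (2375 against 2778 FPKM) and *Mt2* (2095 against 2590 FPKM) were the highest of them.

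Adult globin transcripts made up more of the summed FPKM in KO liver. *Hba-a1* and *Hba-a2*, the adult alpha globins, summed to 67178 FPKM in WT and 88604 in KO liver, 1.32-fold. The adult beta globins *Hbb-bs* and *Hbb-bt* summed to 48178 against 68619 FPKM, 1.42-fold. Between them *Hbb-bt* was at 10218 against 24900 FPKM and *Hbb-bs* at 37960 against 43720 FPKM. *Hbb-bt* was the only erythroid gene called (3.12% of the list, beside 0.538% of protein-coding genes called higher). These pairs are nearly identical copies, so how uniquely mapped reads were divided between them is uncertain and the sums are the safer values. All globins made up 12.5% of summed FPKM in WT and 16.1% in KO liver. Without globins the sums were 841316 and 841655 FPKM.

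The defining erythroid markers were within 2-fold. *Alas2*, the X-linked first enzyme of haem synthesis, was at 849 FPKM in WT and 1035 in KO liver, *Slc4a1*, the band 3 anion exchanger, was at 2415 against 2079 FPKM, and *Klf1*, the erythroid master regulator, was at 480 against 469 FPKM. Over the 32 members of the erythroid list, adult globins included, the median was 0.04 (-0.09 to 0.19), with 18 above 0 and 14 below. Embryonic globins of the primitive lineage were at similar levels, *Hbb-y* with 3830 against 3560 FPKM and *Hbb-bh1* with 516 against 553 FPKM.

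Macrophage genes were lower as a list, led by genes of resident liver macrophages. *Cd5l*, a secreted survival factor of macrophages, was at 64.5 FPKM in WT and 21.7 in KO liver, and *Clec4f*, a lectin of Kupffer cells, was at 2.52 against 0.287 FPKM. *Fcna*, the lectin ficolin A that macrophages secrete, stands outside the list and was at 56.8 against 11.1 FPKM, 5.14-fold lower in FPKM (4.16 to 6.43). *Fcna* overlaps an antisense gene. The defining markers *Csf1r* (26.8 against 20.5 FPKM), *Adgre1* (20.4 against 10.6 FPKM) and *C1qa* (64.7 against 35.4 FPKM) were lower by less than 2-fold. Of 22 measured members 20 were below 0 and 2 were called lower (9.09%, beside 1.61% of protein-coding genes), with a median of -0.38 (-0.85 to -0.26) beside -0.09 over all. *Clec4f* reached 1 FPKM in WT alone, and of the 20 members at 1 FPKM in both livers 1 was called.

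No gene was called in the lists of granulocytes and monocytes, stem and progenitor cells or megakaryocytes. Granulocyte and monocyte genes had a median of -0.35 (-0.57 to -0.09) with 17 of 18 below 0, and *Mpo* and *Elane*, enzymes of neutrophil granules, were at 212 and 38.4 FPKM in WT and at 138 and 19.9 FPKM in KO liver. *S100a8*, the calprotectin subunit, was their one member above 0 (131 against 214 FPKM). Stem and progenitor genes had a median of -0.28 with none of 18 called. *Kit*, the stem cell factor receptor, was at 11.7 against 14.3 FPKM, and *Spi1*, the myeloid factor PU.1, was at 33.6 against 18.7 FPKM. Megakaryocyte genes had a median of -0.26 with none of 19 called, and *Pf4*, a platelet chemokine, was at 478 against 440 FPKM. Mast cell genes (4 members) and lymphoid genes (5 members) were too few to describe as lists. *Hdc*, the histamine-making enzyme, was called lower with 12.1 against 5.54 FPKM, beside 1.61% of protein-coding genes. Of the 4 mast cell members 2 were above 0, *Cpa3* (3.09 against 5.03 FPKM) and *Il1rl1* (2.85 against 3.92 FPKM).

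Measured genes of the endothelial and the stellate and mesenchymal lists were within 2-fold except *Col3a1*. *Pecam1* and *Stab2*, of all endothelium and of sinusoids, were at 13.3 and 15.7 FPKM in WT and at 13.5 and 16.1 FPKM in KO liver. *Cdh5*, the endothelial cadherin, had the lowest ratio of the list, with 18.7 against 13.3 FPKM. The 22 endothelial members had a median of 0.07 (-0.01 to 0.16) and none was called. *Col3a1*, a fibrillar collagen whose exons overlap a predicted gene on the same strand, was at 289 against 119 FPKM, the only called gene of the stellate and mesenchymal list (5.88% of it, beside 1.61% of protein-coding genes). *Col1a1* was at 79.1 against 52.1 FPKM, and the stellate regulator *Lhx2* was at 10.5 against 8.20 FPKM. The 17 members of that list had a median of -0.33 (-0.69 to -0.11) with 13 below 0, beside a median of -0.09 and 7247 of 11518 protein-coding genes below 0. *Gsn*, the actin-severing gelsolin, was also lower with 91.2 against 31.5 FPKM. These genes are also expressed in connective tissue of muscle, and the muscle list was summed to 555 and 179 FPKM in the same libraries; the part of such tissue in the collagen values was not tested.

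**Figure D4:**
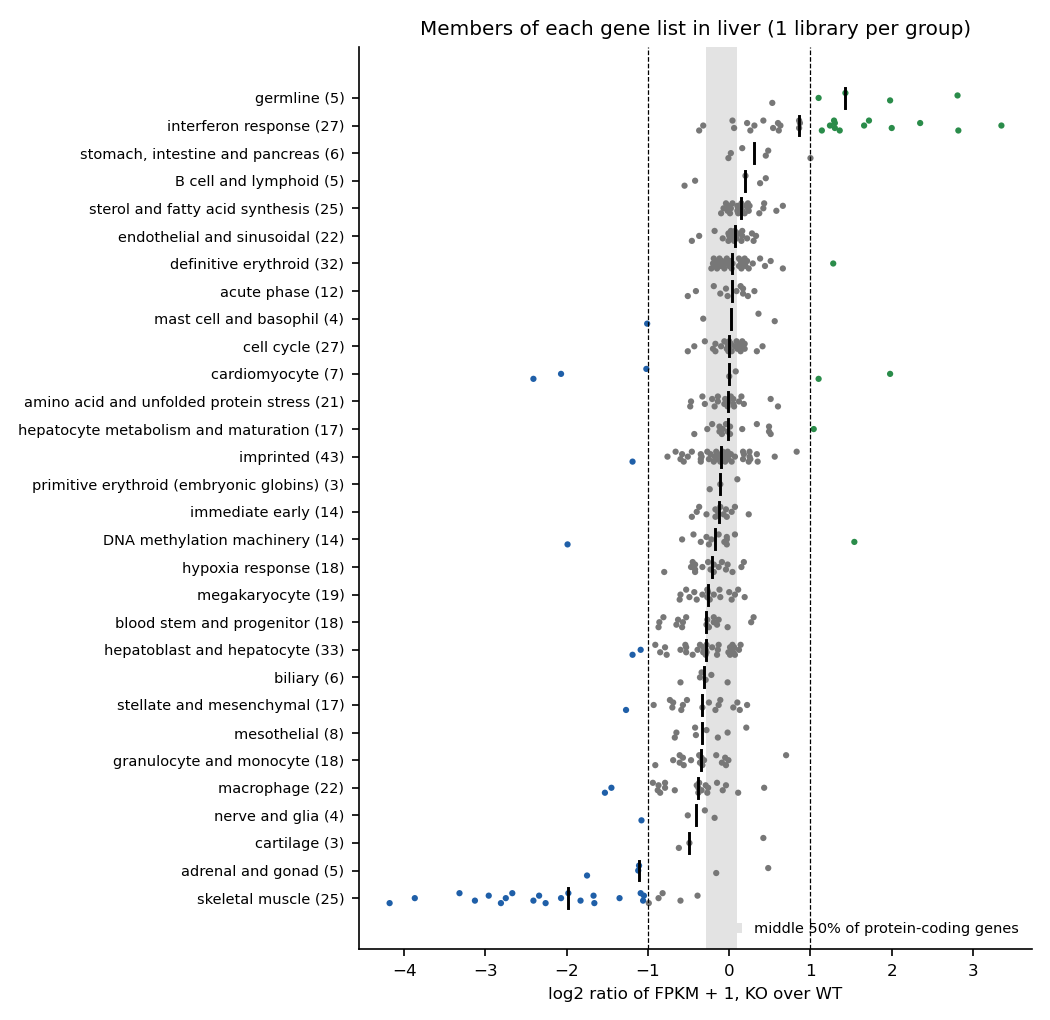
Log2 ratio of FPKM + 1 (KO over WT) of every measured member, 1 line per gene list of at least 3 members, with the number of members in brackets. Black bars are medians, green and blue points are members called higher and lower, dashed lines mark 2-fold and the grey band is the middle 50% of protein-coding genes (-0.28 to 0.09). Skeletal muscle (-1.98) and adrenal and gonad (-1.11) have the lowest medians, germline (1.43) and interferon response (0.86) the highest. This order depends on the filter. Of the 5 germline members 4 reached 1 FPKM in KO liver alone. The adrenal and gonad median is 0.16 over the 2 members at 1 FPKM in both livers.

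Remaining cell types of the region had few measured genes. Mesothelial genes had a median of -0.34 over 8 members and biliary genes of -0.31 over 6, none called. The defining biliary genes *Krt7* and *Krt19* were at 4.73 and 2.38 FPKM in WT and 3.53 and 2.35 FPKM in KO liver. Stomach, intestine and pancreas genes had a median of 0.30 over 6 of 24 listed genes, none called. *Barx1*, a stomach mesenchyme factor, was at 1.4 against 3.79 FPKM, just under 2-fold in FPKM + 1. Cartilage (3 members, median -0.49) and lung epithelium (2 members, median -0.45) held no called gene, and the lung markers *Sftpc* and *Nkx2-1* were listed at 0 in both livers.

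General programmes of the cell were close to level. The 27 cell cycle genes had a median of 0.00 with none called, *Mki67*, a marker of dividing cells, was at 184 FPKM in WT and 210 in KO liver, and *Mcm2*, a replication helicase subunit, was at 462 against 323 FPKM. Hypoxia-response genes had a median of -0.21 over 18 members, immediate early genes of -0.12 over 14, and genes of amino acid and unfolded protein stress of -0.02 over 21. None of these was called. Genes of sterol and fatty acid synthesis were mostly slightly higher, with 20 of 25 above 0, a median of 0.15 (0.04 to 0.23) and none called. *Scd1*, the desaturase that makes oleic acid, was at 29.2 against 46.7 FPKM.

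Other members of the DNA methylation machinery were within 2-fold except *Zbtb38*. *Dnmt1* was at 90.4 FPKM in WT and 66.2 in KO liver, *Dnmt3b* at 7.34 against 5.99 FPKM, and *Uhrf1*, which guides DNMT1 to replicated DNA, at 158 against 152 FPKM. *Dnmt3l*, the cofactor of germ cells, was listed at 0 in both. *Tet3*, which oxidises methylated cytosine, was at 6.89 against 4.29 FPKM, and *Tet1* was under 1 FPKM in both. *Zbtb38*, a protein that binds methylated DNA, was called higher with 2.07 against 7.96 FPKM, although its counting interval of 1.48-fold to 13.9-fold is wide. Of 14 measured members, *Zbtb38* alone was higher and *Dnmt3a* alone lower, beside 0.538% and 1.61% of protein-coding genes; no share is read from single genes.

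Imprinted genes, which are expressed from 1 parental allele through DNA methylation set in the germ line, were close. *H19*, a non-coding RNA, was at 4511 FPKM in WT and 3541 in KO liver, and its neighbour *Igf2*, a fetal growth factor, was at 1548 against 1226 FPKM. Of 43 measured genes only *Mirg*, a non-coding RNA of the *Dlk1* domain, was called, with 7.90 against 2.89 FPKM, a share of 2.33% that is near the 2.28% of all genes called lower. Within that domain *Meg3* was at 17.7 against 10.1 FPKM and *Dlk1*, which hepatoblasts express, at 1637 against 1078 FPKM. The median of the list was -0.10.

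The study assigned genes to DNMT3A and DNMT3B by DNA methylation in fibroblasts. The share of these genes called in liver lay near the 3.64% of all genes. Of 328 DNMT3A genes with a symbol in the data, 159 were measured, none was higher and 6 were lower (3.77%), against 1.36% and 2.28% of all 12873 genes. Their median was -0.24 (-0.32 to -0.19), with 123 of 159 below 0, beside a median of -0.09 and 7247 of 11518 below 0 over protein-coding genes. Centring moved the median of these genes to -0.16. The 6 lower genes include *Mymx* (1.52 against 0.0644 FPKM), the muscle fusion protein myomixer, beside *Apoe*, *Adamtsl5*, *Hand1* and *Cuedc1*. WT liver alone reached 1 FPKM at 19 of the 159, and of the 137 at 1 FPKM in both livers 3 were lower. For genes assigned to DNMT3B, 87 of 307 were measured, none was higher and 3 were lower (3.45%), with a median of -0.19. Centring moved that median to -0.11, and of the 73 at 1 FPKM in both livers 2 were lower. The lists used here do not hold every gene that the study assigned to either enzyme.

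*Dnmt3a* lies on chromosome 12 (mm10, chr12:3806007-3914443, plus strand). Within 10 Mb of it, 39 other genes were measured and none was called, a count too small to set apart from the share of 3.64% over all genes. Their ratios ran from -0.79 to 0.66 with a median of -0.08. By chromosome, the share of called genes lay between 1.24% on chromosome 15 and 5.30% on chromosome 12, the highest.

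Heart libraries of the same label numbers gave a second comparison, in which *Dnmt3a* was higher under the KO label. Whether equal numbers mean the same embryos is not stated, so the liver and heart comparisons may not be independent. Of 11919 protein-coding genes in heart, 136 were higher (1.14%) and 108 lower (0.906%) under the KO label, together 2.05%. Over the 10665 protein-coding genes measured in both organs, 14 were higher in both, which is 26.9% of the 52 genes higher in liver and 13.6% of the 103 higher in heart. A single gene was lower in both, *Immp2l*, a mitochondrial inner membrane peptidase, with 19.4 against 5.95 FPKM in liver and 16 against 4.97 FPKM in heart. Lower in liver and higher in heart were 8 genes, *Dnmt3a* among them, and none was higher in liver and lower in heart.

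The 14 genes higher in both organs included *Isg15*, *Rsad2*, *Oasl2* and *Xaf1* of the interferon list and *Tex19.1*, *Rpl39l* and *Stk31* of the germline list. The others, *Cmpk2*, *Rtp4*, *Ifitm3*, *Slc15a4*, *Wdfy1*, *Hsf2bp* and *1700030K09Rik*, are on neither list. *Isg15* was at 3.90 FPKM in WT heart and 14.1 under the KO label, and *Rsad2* was at 1.22 against 4.21 FPKM. *Oasl2*, an oligoadenylate synthetase-like gene, was at 1.47 against 10.3 FPKM in heart and 2.23 against 6.95 FPKM in liver. The direction was that of liver. The interferon list as a whole had a median of 0.74 over 25 genes in heart. Of these 5 were higher and 1 lower, beside 1.14% and 0.906% of protein-coding genes in heart. *Irf7* and *Ifi27* were level in heart, with 2.66 against 3.07 FPKM and 23 against 20.2 FPKM. Among germline genes, *Tex19.1* was listed at 0 in WT heart and at 1.64 FPKM under the KO label, and *Stk31* was at 0.0502 against 1.39 FPKM.

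No gene of the skeletal muscle list was called in heart, which itself expresses many of them, and the median there was -0.03 over 22 genes that went both ways. The 5 genes of the list with the lowest ratios in liver differed in heart by less than 2-fold in FPKM + 1. Those at 1 FPKM or more in heart were lower under the KO label. *Acta1* was at 370 against 223 FPKM in heart, *Myl1* at 358 against 196 FPKM and *Actc1* at 11034 against 9220 FPKM. *Tnnt3* was at 13.2 against 7.21 FPKM. *Myh3* was the one with a ratio above 0, but at 0.127 against 0.28 FPKM it was under 1 FPKM in both hearts. The difference between the organs was not tested. Erythroid genes had a median of -0.41 in heart and hepatocyte genes one of -0.89, with 7 of 17 called lower, beside 0.906% of protein-coding genes in heart. *Alb* was at 12.7 FPKM in WT heart and 3.04 under the KO label, far below its level in liver.

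**Figure D5:**
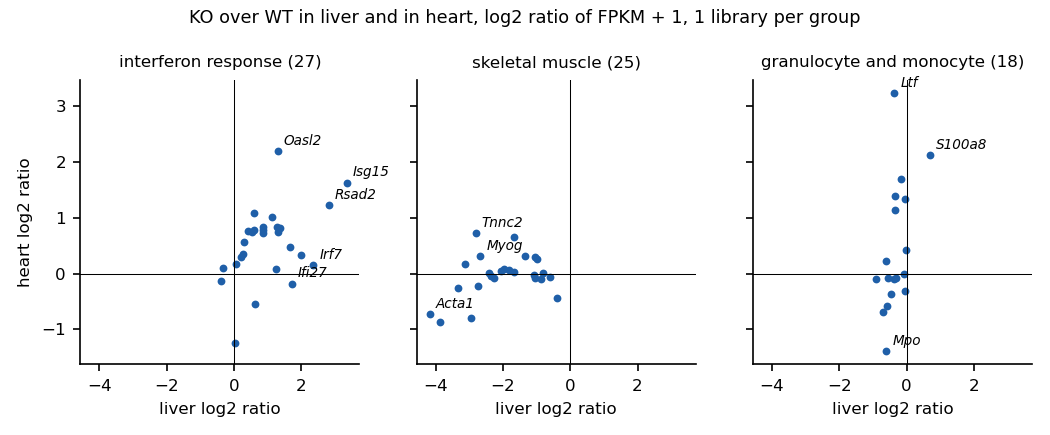
Log2 ratio of FPKM + 1 under the KO label in liver (horizontal) and heart (vertical), 1 point per gene measured in liver, for 3 lists. Interferon-response genes lie mostly above 0 in both organs (medians 0.86 and 0.74), skeletal muscle genes left of 0 in liver with a heart median of -0.03, and *Ltf* and *S100a8* of the granulocyte list are above 0 in heart.

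In MEFs, fibroblasts from E14.5 embryos, *Dnmt3a* was also higher under the KO label. Fibroblast values are set beside the liver only for the 15 genes called in the same direction in both organs. In both fibroblast pairs, with DMSO and with the EZH2 inhibitor GSK126, 4 of the 15 had the sign seen in liver and 9 the opposite sign. *Stk31* was listed at 0 in each WT fibroblast libraries and was at 0.844 and 0.607 FPKM under the KO label. *Wdfy1*, an adaptor of Toll-like receptors, was at 4.22 against 12.1 FPKM with DMSO, and *Tex19.1* and *Hsf2bp*, a partner of a heat shock factor in meiosis, had the same sign at low levels. *Isg15* had the opposite one, with 26.8 FPKM in WT and 10.1 under the KO label with DMSO. *Stk31*, *Tex19.1*, *Hsf2bp* and *Wdfy1* thus had one sign in all 4 comparisons, and *Isg15*, *Rsad2* and *Oasl2* did not. *Hsf2bp* reached 1 FPKM in KO liver alone and rested there on few reads. At its shortest transcript these were an estimated 1 in WT and 7 in KO, with a counting interval of 0.916-fold to 321-fold.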

How the data were processed

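RNA of 1 WT and 1 KO liver was sequenced from stranded mRNA libraries as single reads. The authors trimmed the reads, mapped them to mm10 with tophat and bowtie2 on the GENCODE annotation, kept uniquely mapped reads and deposited FPKM values from cufflinks (Cufflinks 2.2.1 and TopHat2 2.1.0 per the submitters' processing notes). No read counts or scaling between libraries are given, so FPKM were used as deposited.

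Rows of a symbol were summed (138 symbols have several). A pseudocount of 1 was added before the log2 ratio, which understates differences of weakly expressed genes. GENCODE M21 gave gene types, transcript lengths and exon overlaps; 50561 of 52462 matched rows have its start. Low FPKM values of genes with 1 transcript are multiples of the value of 1 read: with a fragment length of 202 bases, 98.7% (WT) and 98.6% (KO) of the values were whole within 0.1, where 20% would be by chance. Depth was estimated from them. Counting intervals (95%, exact binomial) cover counting error only. The depth and ratio steps were tested on simulated data. The 95% intervals of list medians are order statistics over genes, which are not replicates, and are the range of the members where a list has fewer than 6. Calculations used scipy 1.17.1, pandas 2.3.3 and numpy 2.4.6 under Python 3.11.15.

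Members and lists were chosen with earlier results of these data known. Named genes are the 15 highest and 15 lowest ratios among protein-coding genes, the 10 most abundant called genes, genes called alike in liver and heart, the methylation genes, and in each list the called, defining and most abundant members; others were chosen after their values were seen, as was the comparison with fibroblasts. Alternatives changed the pseudocount, centring, scaling, filter, threshold, gene type and handling of repeated symbols; a filter on both livers for the lists was added after the data were seen. DNA methylation samples and 2i-MEF libraries were not used here. Values of some single genes are not reported here.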

Additional observations from a re-analysis of the deposited data

Results flagged for a closer look

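Several genes and 1 list were flagged because their liver and heart ratios lay on opposite sides of 0. The difference was not tested because each group has 1 library. Medians of other lists also differed in sign, such as nerve and glia (-0.41 in liver, 0.32 in heart) and definitive erythroid (0.04 and -0.41). *Dnmt3a* had a log2 ratio of -1.99 in liver and 1.17 in heart. *Atp2a1*, the calcium pump of fast muscle, had -1.96 in liver and 1.37 in heart, with 3.51 against 0.162 FPKM in liver. *Dpf1*, a neural chromatin remodelling subunit, had -1.40 and 1.73. *Usp53*, a deubiquitinase family member, had -1.20 and 1.25. The predicted genes *Gm45799*, *Gm20481* and *Gm20537* had -2.72, -1.30 and -1.09 in liver and 1.30, 1.08 and 1.54 in heart. *Gm45799* shares exons on the same strand with *Dnhd1*, so its level is uncertain. The granulocyte and monocyte list had a median of -0.35 over 18 members in liver and 1.34 over 9 members in heart. Of those 9, *Ngp*, *Camp*, *Ltf*, *S100a8* and *Lcn2* reached 1 FPKM in heart under the KO label alone. The heart median thus follows in part from the filter and rests on fewer genes. *Mpo* went the other way, with 2.16 against 0.205 FPKM in heart.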

How the results depend on the processing

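The median of the adrenal and gonad list, -1.11, turned to 0.16 over the 2 members at 1 FPKM or more in both livers, because the 3 called genes leave under that filter. The same filter, chosen after seeing the data, gave -0.42 for lymphoid genes in place of 0.20 and -1.03 for cardiomyocyte genes in place of 0.00, and the other medians that changed sign lay within 0.1 of 0. The other lists kept the sign of their median with the other pseudocount, centring, rescaling without globins and the other handling of repeated symbols, and, where it was run, with the filter on both livers; the remaining alternatives were run for the counts only. The counts of 175 higher and 294 lower genes became 311 and 600 with a pseudocount of 0.1, 69 and 133 with 1 FPKM required in both livers, 438 and 964 with a 1.5-fold threshold, and 62 and 185 in protein-coding genes. They stayed within 1.5 times under the other 4 alternatives, with 45.2% of calls higher after centring beside 37.3%. With a pseudocount of 0.1 the medians were -3.17 for skeletal muscle, -1.92 for adrenal and gonad, -0.60 for lung epithelium, -0.65 for cartilage, 1.34 for interferon response and 3.02 for germline genes, and centring gave -0.37 for lung epithelium. No paired analysis was possible because each liver group has 1 library. For the same reason no library could be left out.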

Other observations

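Apart from the nerve and glia genes, the genes given here are on none of the lists and were picked after their values were seen, so they give no count and say nothing of a group. *Chga* and *Chgb*, granins of secretory granules, were at 3.69 and 1.61 FPKM in WT and at 0.716 and 0.0612 FPKM in KO liver, and *Pnmt*, the enzyme that makes adrenaline, was at 1.37 FPKM and listed at 0. In the fixed nerve and glia list *Th* was the only called gene, and *Elavl3*, *Elavl4* and *Stmn2*, which mark neurons, were not lower (0.591 against 0.643 FPKM for *Stmn2*). *Tpm2*, a tropomyosin, was at 71.5 against 18.6 FPKM and *Cdh15*, the cadherin of muscle precursors, at 1.82 against 0.0637 FPKM. *Eif2ak2*, the kinase PKR, was at 6.27 against 16.9 FPKM and *Adar*, the RNA-editing deaminase, at 9.67 against 24.0 FPKM.

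Of the 12873 genes, 173 have no annotated transcript of 200 bases, and 122 of them were called.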
